A study of Mus musculus with 24 samples.

Results

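The genes described here are known from the amino acid response of the transcription factor ATF4. They are Atf4 itself and Asns, Trib3, Chac1, Sesn2, Psat1, Phgdh, Shmt2, Mthfd2 and Xpot, examined in brain endothelial cells. Whether ATF4 raises them in these cells was not tested. These genes are 10 of the 53465 genes listed in the count table. They were chosen by name from knowledge of the pathway, but with earlier results of these data known. Among those results was the time course of the ATF4 target Slc7a5 in controls. Xpot was selected on its time course in the control mice. For that reason the control time course is given below as a description, and no test of Xpot that rests on it is reported. The sequenced RNA came from CD31-positive endothelial cells sorted from the brains of single C57BL/6J mice fed ad libitum in a light-dark cycle. The controls were Bmal1fl/fl mice, which carry floxed alleles of the clock gene Bmal1 and no Cre. The Bmal1 mutants were Bmal1fl/fl; Tie2cre mice, which carry the same floxed alleles and express Cre from the Tie2 promoter, a promoter that is active in endothelial cells and also in blood cells. For each genotype, 2 mice were collected every 4 h from ZT2 to ZT22, where zeitgeber time (ZT) counts hours from lights on, which gives 12 control and 12 mutant libraries. The methods state that male and female mice were used, and the ages were not given in the sources used here.

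ATF4 is a transcription factor whose protein is made when the initiation factor eIF2 is phosphorylated, for example by the kinase GCN2 when a cell runs short of an amino acid. ATF4 then binds CCAAT-enhancer binding protein-ATF response elements (CAREs) together with C/EBP partners and raises genes that make, import and charge amino acids. In brain endothelium, which carries amino acids from blood to brain, these genes are of interest because the large neutral amino acid transporter Slc7a5 is among the known targets of ATF4.

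The short stretches of promoter that hold a core CARE or a clock E-box were looked up in the RefSeq promoter table for GRCm38.p6, since those are the motifs that ATF4 and BMAL1 with CLOCK bind. All 10 genes matched by symbol, with 11 promoters, each from 250 bases before to 50 bases after the RefSeq start. The core CARE was searched on both strands as TGATGNAA, where N is any base, and the E-box as CACGTG, which reads the same on both strands. Neither motif contains the other. Of 32851 promoters in the table, 3.97% held the CARE letters and 7.15% the E-box letters. Among these genes, 3 held a CARE match (Asns, Trib3 and Chac1) and 1 held an E-box match (Xpot). The 4 stretches are shown 5′ to 3′ on the strand of the gene, with the match in capitals. In Chac1 and Trib3 the capitals are the reverse complement of the searched letters.
Asns: tcccagccacaTGATGAAActtcccgcacg
Trib3: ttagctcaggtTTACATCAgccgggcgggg
Chac1: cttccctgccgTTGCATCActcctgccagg
Xpot: gctccagggagCACGTGcgcggtcctcc
The Asns stretch lies on the minus strand at chr6:7693214-7693243, with the match 23 bases before the RefSeq start. The Trib3 stretch is on the minus strand at chr2:152344028-152344057, and its match begins at base 15 after the RefSeq start. The Chac1 stretch is on the plus strand at chr2:119351038-119351067, 193 bases before the start. The Xpot stretch is on the minus strand at chr10:121626547-121626574, with the E-box 231 bases before the start. A match describes the letters only, and the absence of these letters from the other windows says nothing about the factors.

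The deposited values are whole reads after normalization by the authors, and each library summed to between 6136404 and 6648311 reads. Differences in the original sequencing depth are therefore not in the values. Arntl, the listed name of Bmal1, had between 1 and 468 reads in controls and between 81 and 354 in mutants; the count covers the whole gene, including exons outside the deleted part, so it does not check the labels. Each of 10 endothelial markers had reads in all 24 libraries, and their sum lay between 65533 and 110366 reads. Astrocyte, microglia and pericyte or smooth muscle markers were also present, and they differed by time point. The 8 libraries of ZT6 and ZT18 had 1218 to 2015 reads over 10 microglia markers, against 10960 to 29123 in the other 16. The same 8 libraries had mitochondrial shares of 2.68% to 3.90%, against 5.78% to 17.4% in the others. The sample labels of these 8 libraries also carry consecutive numbers, so these time points and this series of libraries cannot be told apart. In bulk RNA, fewer cells of a type and less RNA per cell cannot be told apart either.

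The 10 genes were expressed at very different levels. Their length-scaled levels, in normalized reads per kb of exon (all annotated exons merged), were averaged over the 24 libraries. Atf4 led with 536 ± 149 reads per kb (SD, n = 24), followed by Xpot, the exporter of tRNA from the nucleus, with 84.6 ± 13.1. The next levels were those of Shmt2 at 37.6 ± 10.5 and Phgdh at 35.0 ± 22.9 reads per kb. Then came Psat1 at 17.0 ± 11.0, Sesn2 at 14.5 ± 6.62, Trib3 at 13.5 ± 8.05 and Asns at 11.4 ± 6.36 reads per kb. Mthfd2 had 4.60 ± 4.41 and Chac1 1.78 ± 2.80 reads per kb. Atf4 exceeded Xpot, and Xpot exceeded Shmt2, in 24 of 24 libraries. From Shmt2 down to Asns, neighbours in this order overlapped within their spread: Shmt2 was above Phgdh in 12 of 24 libraries, Phgdh above Psat1 in 17, and Psat1 above Sesn2, Sesn2 above Trib3 and Trib3 above Asns in 15 each. Asns was above Mthfd2 in 22 and Mthfd2 above Chac1 in 18 of 24. Scaled to the longest transcript instead, Asns moved ahead of Sesn2 and Trib3, and the other places were the same. The level of Psat1 was then 27.7 and that of Mthfd2 7.69 reads per kb.

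Chac1, which degrades glutathione, was close to the limit of detection and is the only one of the 10 that did not pass the filter of 5 or more reads in at least 6 libraries of a genotype. It had 2, 0, 14, 1, 8, 5, 15, 3, 5, 0, 0 and 0 reads in the control mice from ZT2 to ZT22, with 2 mice per time point. In the mutants it had 11 reads in 1 ZT6 mouse, 3 in 1 ZT14 mouse, 3 in 1 ZT22 mouse and 0 in the other 9 mice. The totals were 53 reads in controls and 17 in mutants, and the ranges of the genotypes overlapped. When the filter was dropped, the log2 fold change was -2.11 with a standard error of 1.43 (edgeR, adjusted p = 0.887). A difference between genotypes was not detectable for Chac1 at this depth.

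**Figure D1:**
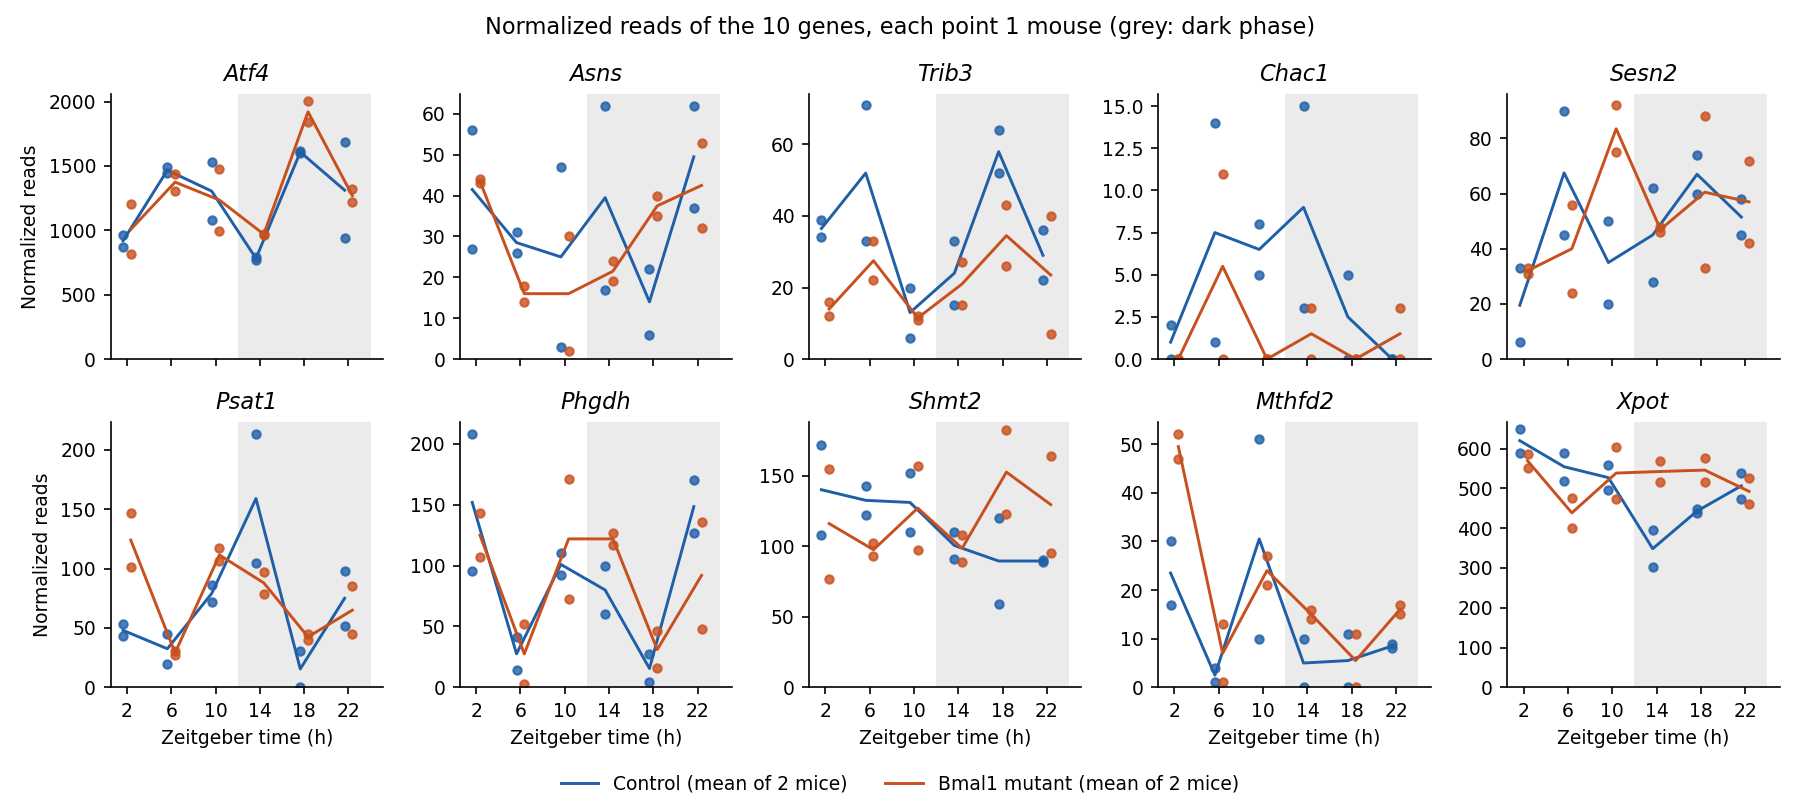
Normalized reads (vertical axis, linear, from 0) of the 10 genes against zeitgeber time in hours (horizontal axis). Points are single mice, lines are means of 2 mice, blue marks controls, orange marks Bmal1 mutants, and grey shading marks the dark phase. Phgdh and Psat1 are low at ZT6 and ZT18 in each genotype, and Xpot in controls is lowest at ZT14, with a mean of 348.5 reads.

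To determine whether these genes depend on the endothelial clock, their levels were first compared across genotypes in edgeR by a quasi-likelihood test that also fitted the 6 time points. Of the 9 genes tested, 0 were called at 0.05 after Benjamini-Hochberg adjustment over 15493 genes, where 42 of all genes were (0.271%, with 24 higher and 18 lower in mutants). At an unadjusted p-value under 0.05 there were also 0 of 9, where 6.95% of all genes passed. DESeq2 called 0 of the 5 to which it gave an adjusted p-value (Atf4, Psat1, Phgdh, Shmt2 and Xpot) and gave none to Asns, Trib3, Sesn2 and Mthfd2.

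Atf4 (ENSMUSG00000042406, GRCm38 chr15:80255184-80257541) had between 773 and 1684 reads in controls, with a median of 1261, and between 812 and 2001 in mutants, with a median of 1262.5. The ranges overlapped, and 2 mutant mice, those of ZT18, lay above every control. After scaling by the trimmed mean of M-values (TMM), the control mean of Atf4 was 1229 ± 347 reads and the mutant mean 1299 ± 372 (SD, n = 12 each). The log2 fold change of mutants over controls was 0.08 with a 95% interval from -0.10 to 0.26 (adjusted p = 0.930, edgeR).

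Among the genes that ATF4 raises to restrain or adapt the response, Trib3 lay furthest from 0. Trib3 (ENSMUSG00000032715, chr2:152337422-152344032) encodes a pseudokinase that feeds back on ATF4 and CHOP. Its reads ran from 6 to 71 in controls with a median of 33.5, and from 7 to 43 in mutants with a median of 19. The mutant range therefore lay inside most of the control range. The log2 fold change was -0.63 with an interval from -1.30 to 0.04 (unadjusted p = 0.0746, adjusted p = 0.771, edgeR). Sesn2 (ENSMUSG00000028893, chr4:132492032-132510501), an inhibitor of mTORC1 that senses leucine, had 6 to 90 reads in controls and 24 to 92 in mutants. On this scale Sesn2 came to 0.20 with an interval from -0.39 to 0.78.

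For the genes of amino acid synthesis the genotypes overlapped as well. Asns (ENSMUSG00000029752, chr6:7675169-7693254), which makes asparagine, had 3 to 62 reads in controls with a median of 29 and 2 to 53 in mutants with a median of 31. The estimate for Asns was -0.20 with an interval from -1.02 to 0.62. Phgdh and Psat1 encode the first and the second enzyme of serine synthesis from glucose. Phgdh (ENSMUSG00000053398, chr3:98313170-98339990) had 4 to 208 reads in controls with a median of 94 and 3 to 171 in mutants with a median of 90. The estimate for Phgdh was 0.12 with an interval from -0.49 to 0.74. Psat1 (ENSMUSG00000024640, chr19:15904678-15947337) had 0 to 213 reads in controls with a median of 52.5 and 27 to 147 in mutants with a median of 82. Psat1 had an estimate of 0.33 with an interval from -0.31 to 0.97, and 1 control mouse, the second of ZT14, held the highest value.

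Shmt2 and Mthfd2 encode mitochondrial enzymes that pass 1-carbon units from serine to folate. Shmt2 (ENSMUSG00000025403, chr10:127517123-127522444) had 59 to 172 reads in controls and 77 to 182 in mutants. The estimate for Shmt2 was 0.09 on the log2 scale, with an interval from -0.27 to 0.45. Mthfd2 (ENSMUSG00000005667, chr6:83305691-83325908) had 0 to 51 reads in controls with a median of 9.5 and 0 to 52 in mutants with a median of 15.5. Its log2 fold change was 0.76, and at this depth its interval ran from -0.44 to 1.96. Xpot (ENSMUSG00000034667, chr10:121587380-121626332) had 302 to 650 reads in controls with a median of 507.5 and 401 to 604 in mutants with a median of 520.5. The estimate for Xpot was 0.08 with an interval from -0.10 to 0.26 (adjusted p = 0.932, edgeR), which is as narrow as that of Atf4. This estimate compares mean levels over the day, and it uses the same 12 control mice whose time course chose Xpot. Sesn2, Psat1, Shmt2, Mthfd2 and Xpot overlap other annotated genes on the genome, and whether reads of those genes were counted with them was not tested.

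**Figure D2:**
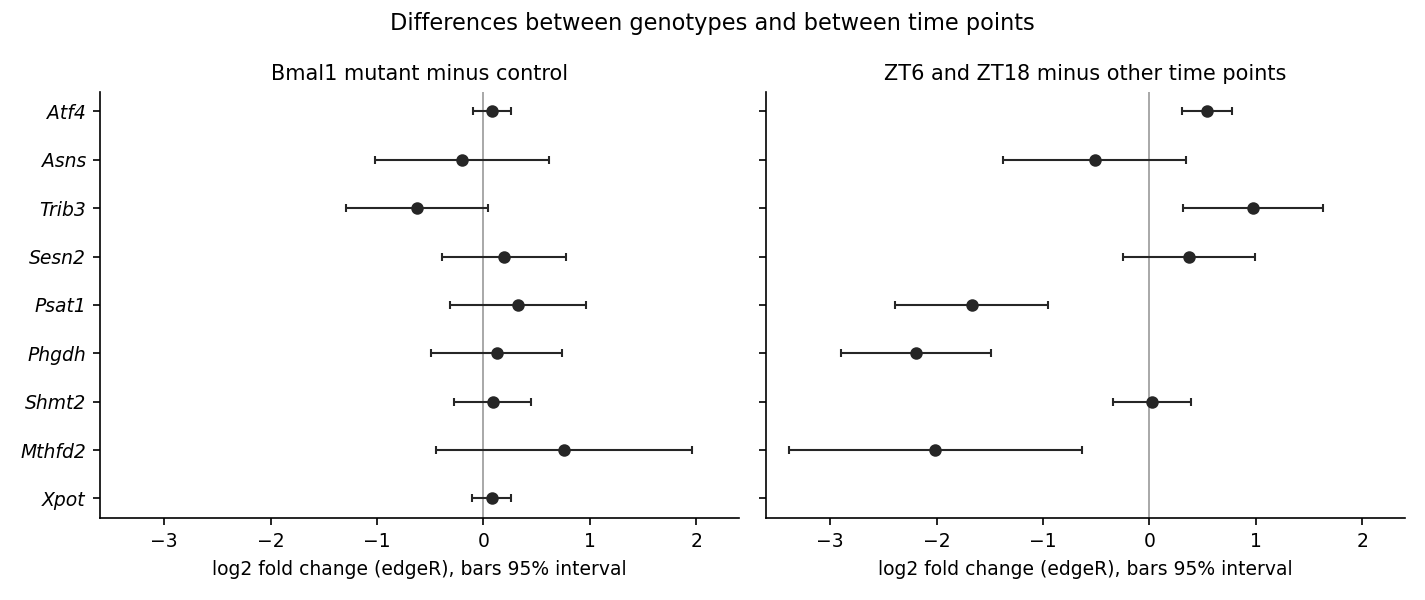
Log2 fold changes (horizontal axis) with 95% intervals from edgeR for the 9 genes that passed the filter: Bmal1 mutants minus controls on the left, and ZT6 and ZT18 libraries minus those of the other time points on the right, where Xpot is left out. On the left all 9 intervals include 0; on the right Phgdh, Psat1 and Mthfd2 lie below 0, and Atf4 and Trib3 above it.

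Time of day in the mutants was then tested with meta2d, which combines the JTK_CYCLE and Lomb-Scargle p-values for a 24-h period. None of the 9 genes had an unadjusted p-value under 0.05 (0 of 9), where 2.27% of all 15493 genes did, and no gene of the table had a q under 0.05 (lowest q = 0.325). The smallest p-value among the 9 was that of Asns (p = 0.0750, q = 1, meta2d, n = 12 mice). The mutant mice had these reads of Asns: 44 and 43 (ZT2), 18 and 14 (ZT6), 2 and 30 (ZT10), 24 and 19 (ZT14), 40 and 35 (ZT18), 32 and 53 (ZT22). Its mutant reads were thus low from ZT6 to ZT14 and higher from ZT18 to ZT2, and the fitted 24-h wave had an amplitude of 54.5% of its mean and peaked at ZT22.0. Leaving out the second ZT10 mouse or the first ZT22 mouse gave p = 0.0265 and p = 0.0324, and over all 12 such fits p ran up to 0.287 (meta2d, n = 11 mice each). In the controls the mean of Asns was highest at ZT22 (49.5 reads) and lowest at ZT18 (14 reads), a time at which the mutants were high.

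The control mice had these reads of Xpot: 650 and 590 (ZT2), 590 and 519 (ZT6), 496 and 558 (ZT10), 302 and 395 (ZT14), 437 and 449 (ZT18), 539 and 474 (ZT22). The control mice of ZT14 were the lowest and those of ZT2 and ZT6 among the highest, and the fitted 24-h wave had an amplitude of 22.5% of its mean and peaked at ZT3.32; these are the values that chose Xpot. Xpot in the mutants, which its choice did not use, came to these reads: 552 and 587 (ZT2), 476 and 401 (ZT6), 473 and 604 (ZT10), 570 and 515 (ZT14), 576 and 516 (ZT18), 525 and 460 (ZT22). The lowest mutant mean was at ZT6. The amplitude in mutants was 4.66% of the mean, and meta2d gave p = 1 (n = 12 mice). The difference between genotypes in the rhythm of Xpot was not tested, since its control values chose it. That choice favours a large control amplitude and a low control trough, so the mutant values set beside them do not measure a difference between genotypes.

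For the other 8 genes that passed the filter, edgeR tested whether the 24-h wave differed between genotypes, as an interaction. None of the 8 (0 of 8) had an adjusted p-value under 0.05, and neither did any other gene; at an unadjusted p-value under 0.05 there were 0 of 8, where 4.26% of all genes passed. The smallest was that of Shmt2 (unadjusted p = 0.102, edgeR); with 1 library left out its unadjusted p ran from 0.0390, without the first mutant mouse of ZT10, to 0.263. Shmt2 had means of 140 reads at ZT2 and 89.5 at ZT18 in controls, and of 97.5 at ZT6 and 152.5 at ZT18 in mutants.

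When the 6 time points were fitted in the mutants as separate levels rather than as a 24-h wave, 3 of 9 genes had unadjusted p-values under 0.05: Atf4 (p = 0.00145), Psat1 (p = 0.00459) and Phgdh (p = 0.0497, edgeR, n = 12 mice). In this fit 16.6% of all genes passed the same threshold. Over all genes the adjusted p-value was under 0.05 for Atf4 (adjusted p = 0.0305), among 876 genes (5.65%). The reads of Atf4 in the mutant mice were 1202 and 812 (ZT2), 1440 and 1308 (ZT6), 1473 and 997 (ZT10), 967 and 972 (ZT14), 1840 and 2001 (ZT18), 1217 and 1321 (ZT22). The reads of Atf4 in the control mice were 967 and 870 (ZT2), 1491 and 1442 (ZT6), 1080 and 1528 (ZT10), 773 and 790 (ZT14), 1613 and 1602 (ZT18), 1684 and 939 (ZT22). In each genotype the mean was highest at ZT18, with 1607.5 reads in controls and 1920.5 in mutants, and lowest at ZT14, with 781.5 and 969.5.

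Because several genes had a common level at ZT6 and ZT18, the 8 libraries of these times were compared with the other 16, with genotype as a covariate. This comparison was added after the values were seen, so its p-values restate, in part, the levels that prompted it and are no independent evidence of them. Higher reads at ZT6 and ZT18 were called for 5.85% of all genes and lower reads for 10.9%. Of the 8 genes tested here, 2 were higher (Atf4 and Trib3), 3 were lower (Phgdh, Psat1 and Mthfd2), and Asns, Sesn2 and Shmt2 did not pass the test.

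Phgdh, Psat1 and Mthfd2 were the lower ones. Phgdh had 41, 14, 27 and 4 reads in the control mice of ZT6 and ZT18 and 52, 3, 46 and 16 in the mutant mice of these times. At the other times it had 60 to 208 reads in controls and 48 to 171 in mutants. Only 1 of the 16 other libraries fell within the range of the 8. Phgdh was lower by 2.19 on the log2 scale (-2.19 ± 0.36 standard error), which is 4.57-fold (edgeR, adjusted p = 2.1e-05). Psat1 followed the same time points, with 20, 45, 0 and 31 reads in controls and 31, 27, 40 and 45 in mutants, against 43 to 213 and 45 to 147 at the other times. The log2 fold change of Psat1 was -1.67 with a standard error of 0.37 (adjusted p = 0.00103, edgeR). Mthfd2 had 1, 4, 11 and 0 reads in controls and 13, 1, 0 and 11 in mutants at ZT6 and ZT18, and 11 of the other 16 libraries lay above the highest of these. Its log2 fold change was -2.01 with a standard error of 0.70 (adjusted p = 0.0450, edgeR).

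Atf4 and Trib3 lay on the other side. Atf4 had 1308 to 2001 reads at ZT6 and ZT18 and 773 to 1684 at the other times, and 12 of the 16 other libraries were below the lowest of the 8. The log2 fold change was 0.54 with a standard error of 0.12 (adjusted p = 0.00121, edgeR), which is 1.46-fold. Trib3 had 71, 33, 52 and 64 reads in controls and 22, 33, 43 and 26 in mutants at ZT6 and ZT18, against 6 to 39 and 7 to 40 at the other times. Its log2 fold change was 0.97 with a standard error of 0.34 (adjusted p = 0.0426, edgeR). Asns (-0.51, standard error 0.44), Sesn2 (0.37, standard error 0.32) and Shmt2 (0.02, standard error 0.19) did not pass. In a test of whether this shift differed between genotypes, 0 of the 8 genes had an unadjusted p-value under 0.05, where 3.95% of all genes did, and 0 genes of the table had an adjusted one (edgeR).

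The calls of Trib3 and Mthfd2 were close to the threshold: leaving out 1 library ended the call of Trib3 for 15 of the 24 libraries and that of Mthfd2 for 10, while Atf4, Psat1 and Phgdh were called in all 24 fits. With the i5 index of the library as a covariate, Phgdh (-2.35) and Mthfd2 (-3.03) were called. Atf4 (0.51, adjusted p = 0.127), Trib3 (1.14, adjusted p = 0.275) and Psat1 (-1.07, adjusted p = 0.265) were not, and the log2 fold changes of Atf4 and Trib3 were close to those without the index. Every library of ZT6 and ZT18 carried the same i5 index, and of the others only the control mice of ZT2 and ZT10 carried it. The index thus largely coincided with this comparison, and calls kept or lost with it do not tell the index and the time points apart. At ZT2 and ZT10 every control library carried this index and every mutant library the other. Genotype and index therefore cannot be told apart at these times, which bears on the tests of genotype and of a difference in rhythm as well.

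Marker genes of astrocytes and microglia moved with the serine synthesis genes. Of 10 astrocyte markers, 8 were lower at ZT6 and ZT18 and 1 was higher (S1pr1, which endothelial cells also express), with a median log2 fold change of -1.47. None of the 10 was at 0 in any library. Their sum ranged from 14191 to 20667 reads at ZT6 and ZT18 and from 19743 to 33918 at the other times. Across the 24 libraries, Spearman's rho of the TMM-scaled reads with this sum was 0.80 for Phgdh, 0.69 for Psat1 and 0.46 for Mthfd2. Over the 16 libraries of the other times alone, it was 0.39, 0.17 and -0.06. With the microglia sum it was 0.85 for Phgdh, 0.58 for Psat1 and 0.57 for Mthfd2 over the 24 libraries, and 0.61, -0.18 and 0.24 over the 16. These are descriptions of libraries that share time points and a common scale. All 10 microglia markers were also lower at ZT6 and ZT18 (median log2 fold change -3.90), as were 9 of 10 neuron markers, 7 of the 8 oligodendrocyte markers that passed the filter (median -1.88) and 5 of 7 red blood cell genes (median -0.63), while 8 of 10 endothelial and 9 of 10 pericyte and smooth muscle markers were higher. Trib3 moved with these sums as well. The microglia sum ranged from 1218 to 2015 reads at ZT6 and ZT18 and from 10960 to 29123 at the other times, with Trem2 at 0 in at least 1 library, and Trib3 had a rho with it of -0.69 over the 24 libraries and -0.63 over the 16. The endothelial sum ranged from 101206 to 110366 and from 65533 to 96590 reads, with no marker at 0, and Trib3 had a rho with it of 0.59 and 0.43. With the astrocyte sum Trib3 had -0.50 and -0.03. The part of cell composition in the Phgdh, Psat1, Mthfd2 and Trib3 differences was not tested.

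Genes that respond to cell isolation moved with Atf4. The sum of 13 such genes, 11 of the immediate-early kind and the heat-shock genes Hspa1a and Hspa1b, ranged from 63592 to 84054 reads at ZT6 and ZT18 and from 23720 to 87925 at the other times, with no gene at 0 in any library. Of the 13, 6 were higher at ZT6 and ZT18 and 0 lower. Between genotypes 0 of the 13 were called, where 0.271% of all genes were. At an unadjusted p-value under 0.05, 10 had higher reads in mutants, where 6.95% of all genes passed in either direction (edgeR). The median log2 fold change of the 13 was 0.29, beside the 0.08 of Atf4. Spearman's rho between Atf4 and this sum was 0.88 over the 24 libraries, 0.90 over the 16 libraries of the other times and 0.98 over the 8 libraries of ZT6 and ZT18. It was 0.90 in the 12 controls and 0.86 in the 12 mutants. Of the other 8 genes, 3 had a rho above 0 with the same sum over the 24 libraries (0.44 for Sesn2, 0.35 for Shmt2 and 0.13 for Trib3) and 5 had one below (-0.45 for Psat1, -0.43 for Phgdh, -0.27 for Asns, -0.23 for Mthfd2 and -0.15 for Xpot). Over the 16 libraries of the other times, Sesn2 came to 0.47, Shmt2 to 0.36 and Trib3 to -0.33, while Psat1 came to -0.14, Phgdh to -0.08, Asns to -0.31, Mthfd2 to 0.04 and Xpot to -0.20. Within the 8 libraries of ZT6 and ZT18, Psat1 came to 0.33, Phgdh to 0.52, Asns to 0.55, Mthfd2 to 0.23 and Xpot to 0.48. In the same 8, Sesn2 came to 0.05, Shmt2 to 0.29 and Trib3 to -0.19. Pericyte and smooth muscle markers moved with Atf4 too: their sum was 16020 to 25775 reads at ZT6 and ZT18 and 10578 to 20360 at the other times, with Tagln at 0 in at least 1 library. Atf4 had a rho with that sum of 0.76 over the 24 libraries, 0.55 over the 16 of the other times and 0.33 over the 8 of ZT6 and ZT18. With the astrocyte sum Atf4 had -0.61 over the 24 and -0.41 over the 16, with the microglia sum -0.39 and 0.25, and with the endothelial sum 0.48 and -0.15. Over the 8 libraries of ZT6 and ZT18 it had 0.64 with the astrocyte sum, 0.74 with the microglia sum and 0.24 with the endothelial sum. The parts of cell isolation and of these cells in the level of Atf4 were not tested.

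**Figure D3:**
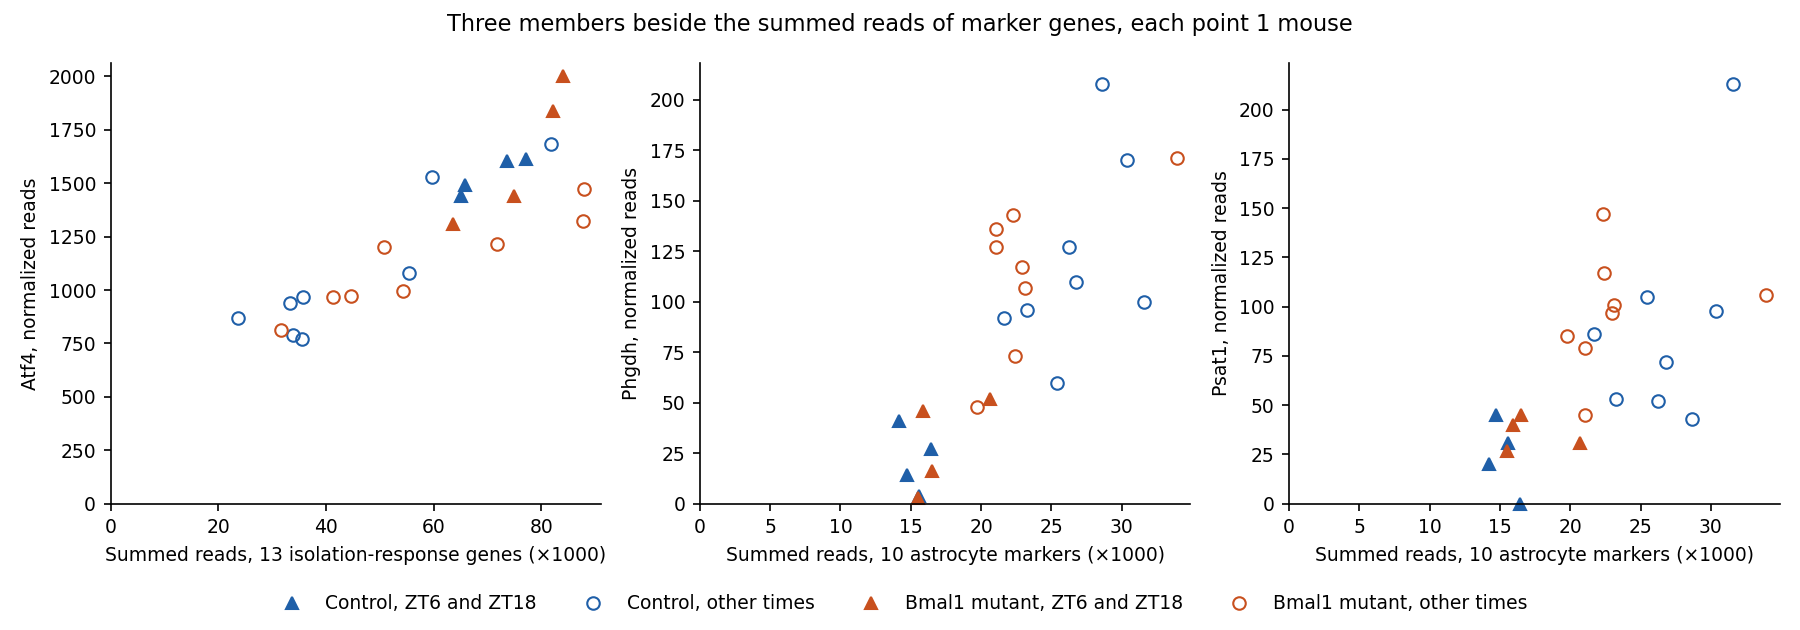
Normalized reads (vertical axes, from 0) of Atf4 against the summed reads of 13 isolation-response genes, and of Phgdh and Psat1 against the summed reads of 10 astrocyte markers (horizontal axes, each unit 1000 reads). Each point is 1 mouse, filled triangles are ZT6 and ZT18, open circles are the other times, blue marks controls and orange Bmal1 mutants. Atf4 follows the isolation-response sum in each set of libraries (rho 0.88 over all 24), and Phgdh and Psat1 are low where the astrocyte sum is low.

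The genes whose pattern over the 24 libraries was most like that of Atf4 were Fos (rho = 0.93), Ppp1r15a (rho = 0.92) and Ier2 (rho = 0.90). Fos and Ier2 are immediate-early genes, and Ppp1r15a, itself a target of ATF4, encodes the subunit that directs a phosphatase to eIF2. Over the 16 libraries without ZT6 and ZT18 the same values were 0.91, 0.92 and 0.88. Fos and Ier2 also belong to the list of 13. For Xpot the most alike were Tmem41a (rho = 0.79), 2700062C07Rik (rho = 0.76) and Grwd1 (rho = 0.74), which had mean reads of 19.8, 19.0 and 32.6 per library, so their own counting error is large. None of the 10 genes studied was among the 3 most alike of either.

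The 9 genes were also compared with each other in pairs. Over the 24 libraries the 36 pairs had a median Spearman's rho of -0.01, with 16 pairs above 0 and 20 below. The highest were Phgdh with Mthfd2 (0.58), Psat1 with Phgdh (0.55) and Trib3 with Sesn2 (0.44), and the lowest was Trib3 with Mthfd2 (-0.62). Without the ZT6 and ZT18 libraries, Psat1 with Phgdh came to -0.22, Phgdh with Mthfd2 to 0.16 and Trib3 with Sesn2 to 0.17, over 16 libraries. Over the 24 libraries Atf4 had a rho of -0.54 with Psat1, -0.50 with Phgdh and -0.38 with Mthfd2. It had 0.40 with Sesn2, 0.30 with Shmt2, 0.28 with Trib3, -0.19 with Asns and -0.02 with Xpot. Over the 16 libraries, Atf4 came to -0.18 with Psat1, 0.03 with Phgdh, -0.04 with Mthfd2, 0.38 with Sesn2, 0.31 with Shmt2 and -0.27 with Trib3. The low counts of several genes limit these values, and a weak correlation in sparse counts is no finding.

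**Figure D4:**
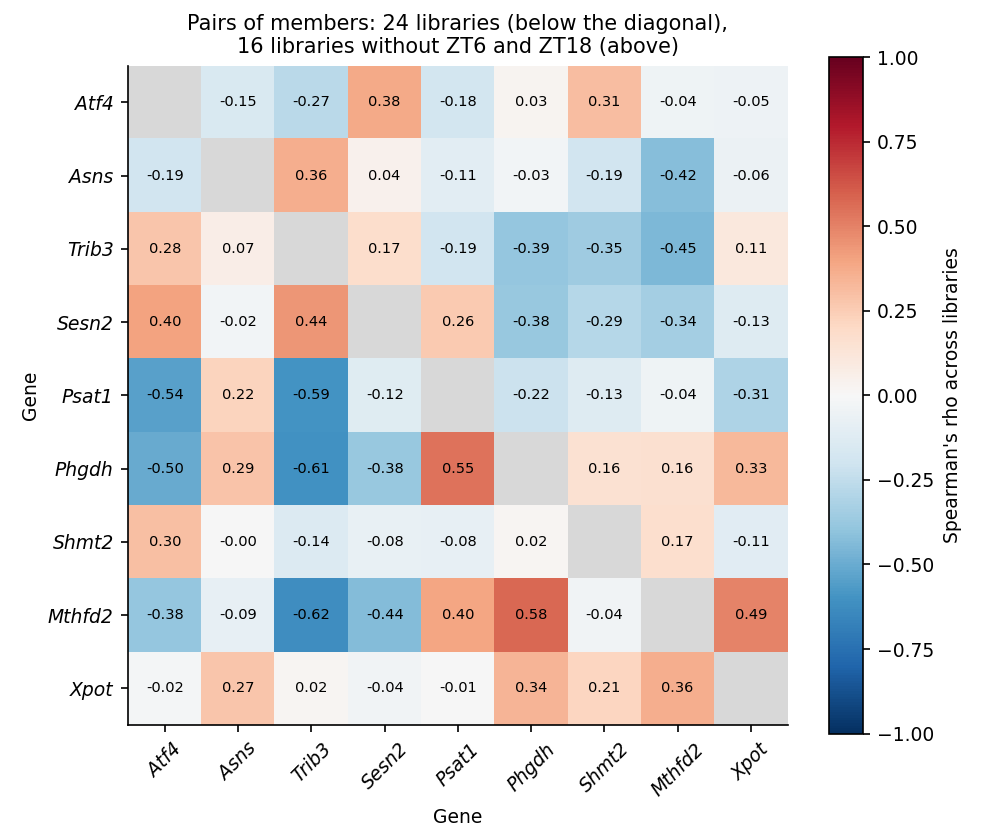
Spearman's rho between pairs of the 9 genes that passed the filter (rows and columns), over 24 libraries below the diagonal and over the 16 libraries without ZT6 and ZT18 above it; colour runs from -1 to 1. The Phgdh with Psat1 pair is at 0.55 below the diagonal and -0.22 above it.

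Other genes of the pathway came from 3 lists. Of 31 further targets of ATF4, 27 passed the filter. Between genotypes 0 of the 27 were called in either direction (edgeR, adjusted p under 0.05), where 0.271% of all genes were. An unadjusted p-value under 0.05 was found for 1 of the 27, where 6.95% of all genes passed. The median log2 fold change of these targets was -0.10, against 0.0033 over all genes. The 3 with the smallest p-values were Mthfd1l, Atf3 and Jdp2. Mthfd1l, a mitochondrial enzyme that releases formate from the folate cycle, averaged 58.9 ± 36.0 reads in the control mice and 26.4 ± 13.2 in the mutant mice (SD, n = 12 each). Its reads ran from 10 to 124 in controls and from 7 to 55 in mutants, so the groups overlapped. The log2 fold change of Mthfd1l was -1.06 with a standard error of 0.34 (unadjusted p = 0.00427, adjusted p = 0.343, edgeR). Atf3, a stress-induced repressor and also 1 of the 13 isolation-response genes, came to 0.34 on the log2 scale (standard error 0.20), and Jdp2, a related factor, of -0.24 (standard error 0.14).

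Of 15 genes upstream of ATF4 (eIF2 kinases, eIF2 and eIF2B subunits and phosphatase subunits), 15 passed the filter. Between genotypes 0 were called, where 0.271% of all genes were, and the median log2 fold change was -0.02. Eif2ak1, the eIF2 kinase that responds to heme, came to 0.20 on the log2 scale (standard error 0.12). Impact, an inhibitor of GCN2, had 0.22 (standard error 0.14), and Ppp1r15b, the constitutive phosphatase subunit, 0.11 (standard error 0.09). Of 19 genes of serine and 1-carbon metabolism, 19 passed and 0 were called, where 0.271% of all genes were, with a median of -0.10. Besides Mthfd1l, which is on this list too, Slc25a32, the mitochondrial folate carrier, came to -0.28 on that scale (standard error 0.11, unadjusted p = 0.0214, adjusted p = 0.578, edgeR).

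In the mutants, meta2d gave unadjusted p-values under 0.05 for 4 of the 27 further targets, named here after their values were seen: Slc7a5 (p = 0.00231, q = 0.762), Slc3a2 (p = 0.00464), Cth (p = 0.0311) and Eif4ebp1 (p = 0.0387), the last 3 with q = 1 (n = 12 mice); over all genes 2.27% passed. Slc7a5 and Slc3a2 encode the light and the heavy chain of 1 amino acid transporter. Slc7a5 had 6754 ± 1478 reads in controls and 6365 ± 1912 in mutants (SD, n = 12 each). Among the upstream genes, 1 of 15 passed, the kinase gene Eif2ak3 (p = 0.0188, q = 1, n = 12 mice), and among the serine and 1-carbon genes 0 of 19.

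At ZT6 and ZT18 the further targets went either way, with 4 of 27 higher and 4 lower (over all genes 5.85% and 10.9%) and a median log2 fold change of -0.08, against -0.0061 over all genes. The higher ones were Ppp1r15a (0.69), Ddit4 (0.64), Jdp2 (0.53) and Slc38a2 (0.38), on the log2 scale, and the lower ones Vldlr (-1.98), Slc6a9 (-1.21), Gpt2 (-1.07) and Slc7a11 (-1.05). Of the serine and 1-carbon genes, 3 of 19 were lower, with a median over the list of -0.33: Gldc (-1.45), Aldh1l1 (-1.39), which is also on the astrocyte list, and Mtr (-0.44). Of the 15 upstream genes, Eif2s2 was higher (0.36), with a median of 0.15.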

How the data were processed

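Per the labels, single mice gave 24 RNA libraries; the authors aligned reads with STAR 2.5.3a to GRCm38, used SAMtools 1.3.1 and PORT, and deposited normalized whole-number counts per gene. Columns of per-sample values that were not mapped: 0. No pair of libraries was identical (0 pairs). A gene was kept when 6 libraries of a genotype had 5 reads or more each, which left 15493 of the 25174 genes with a read. Tests of levels and of 24-h rhythms used edgeR 4.0.16 (R 4.3.3; TMM, quasi-likelihood, Benjamini-Hochberg, called at adjusted p under 0.05), and the mutant time course with meta2d rewritten in Python 3 (called at unadjusted p under 0.05). Intervals are the log2 fold change ± 1.96 standard errors. The p-values measure the spread between mice, and totals after normalization do not show the original depth. On simulated data of 15493 genes the genotype test recovered 97.5% of 200 genes with 2-fold changes, the rhythm test 90.5% and meta2d 95.5% of 200 rhythmic genes with relative amplitude 0.8. The changed genes were drawn from those above a floor of mean reads, with the same dispersion for every gene and no shift at ZT6 and ZT18. These rates check the code and do not give the power for the genes studied here, several of which had few reads and a wide spread. Alternatives were DESeq2 1.42.0, no TMM, no filter, no time point, a replicate block, the i5 index, subsets of time points and each library left out. Length-scaled levels used the GENCODE annotation of GRCm38.

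The members, lists and tests were chosen with earlier results of these data known. Genes named from the lists were those with an adjusted p under 0.05 between genotypes and the 3 with the smallest p-values; for Atf4 and Xpot, the 3 genes of highest Spearman's rho were named. Some genes of the serine and 1-carbon list are not reported here. The mice carry replicate numbers in their labels, and nothing says that a number marks a shared litter or day.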

Additional observations from a re-analysis of the deposited data

Results flagged for a closer look

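In each set of libraries of 1 genotype (4 of ZT6 and ZT18, 8 of the other times), the highest and lowest reads of the 10 genes were compared with the nearest library (Dixon's test); 40 sets were looked at and 2 libraries stood apart. For continuous values, chance alone marks about 1 in 20 such sets. That rate does not carry over to low counts with ties, such as those of Chac1. Chac1 had 11 reads in the second mutant mouse of ZT6 and 0 in the other 3 mutant libraries of ZT6 and ZT18. Psat1 had 213 reads in the second control mouse of ZT14, against 105 in the next highest of the 8 control libraries of the other times.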

How the results depend on the processing

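The genotype comparison called 0 of the 9 genes under 7 alternatives and with each library left out, and 0 of the 5 with an adjusted p-value under DESeq2. Genotype and i5 index coincided at ZT2 and ZT10, so what changes with the index does not tell them apart at these times. The count over all genes moved from 42 to 99 with DESeq2, 141 without the filter, 0 without the time point, 7 with the i5 index and 3 with only the ZT6 and ZT18 libraries, and it lay between 25 and 68 with 1 library left out (25 without the second and 68 without the first mutant mouse of ZT6). Among log2 fold changes that were not called, Phgdh changed sign without the time point (-0.012) and without ZT6 and ZT18 (-0.045), Sesn2 with the i5 index (-0.19) and with only ZT6 and ZT18 (-0.43), Psat1 with the i5 index (-0.015) and Asns with only ZT6 and ZT18 (0.31). With 1 library left out, Asns ran from -0.37 to 0.084 (positive without the second control mouse of ZT10), Phgdh from -0.063 to 0.25 (negative without the first mutant mouse of ZT6 or of ZT18) and Shmt2 from -0.0066 to 0.16 (negative without the first control mouse of ZT18).

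In the mutants, meta2d counted 351 genes; the edgeR cosinor counted 645, with the replicate block 590, and the fit with time points as separate levels 2574 genes, of them 3 of the 9. With 1 mutant left out, 0 to 1 of the 9 passed. For the difference in rhythm, 0 genes became 1 with the i5 index, 2 with time points as levels, and 0 to 1 with 1 library left out (1 without the second control mouse of ZT22). The comparison of ZT6 and ZT18 counted 2595 genes and 5 of the 8 tested; with only controls 1064 and 1 (Phgdh; not called were Atf4 at 0.50, Trib3 at 1.08, Psat1 at -1.96 and Mthfd2 at -2.02), with only mutants 1535 and 3 (Phgdh, Psat1 and Atf4; not called were Trib3 at 0.86 and Mthfd2 at -1.99), with the i5 index 1003 and 2, and 3 to 5 of the 8 with 1 library left out. Shmt2, not called, changed sign with only controls (-0.070) and the i5 index (-0.28) and ran from -0.088 to 0.13 with 1 library left out. Sesn2, not called either, moved from 0.37 to 0.80 with only controls and to 1.17 with the i5 index, and changed sign with only mutants (-0.091). The libraries whose absence ended the call of Trib3 were the control mice ZT6 1, ZT10 1 and 2, ZT14 2, ZT18 1 and 2 and ZT22 2 and the mutant mice ZT2 1 and 2, ZT6 2, ZT10 1 and 2, ZT14 2, ZT18 1 and ZT22 2 (adjusted p up to 0.101). For Mthfd2 they were the control mice ZT2 1, ZT6 1 and 2, ZT10 1 and ZT18 2 and the mutant mice ZT2 1 and 2, ZT6 2, ZT10 2 and ZT18 1 (adjusted p up to 0.0838). The causes were not tested.

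The replicate number gave no pairing: at the 6 time points the difference between mouse 1 and mouse 2 correlated between genotypes at r from -0.0087 to 0.015 across genes. With the replicate number as a block, the genotype test called 45 genes and 0 of the 9, and where else it was fitted (the cosinor in mutants, the difference in rhythm, and ZT6 and ZT18 against the others) it changed no call of the genes tested there; it was not fitted with the time points of the mutants as levels. The low reads of Chac1, Mthfd2, Asns and Trib3 limit what differences could be seen.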
